A study of Homo sapiens with 52 samples.

Results

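The subunits of the microtubule motors, 42 genes of kinesins, cytoplasmic dynein, dynactin and the dynein regulators, were followed in the neurite and soma fractions of i3Neurons. They were chosen by gene symbol, matched to the Ensembl identifiers of the table, and make up 42 of its 63241 genes. They comprise 6 kinesin-1 genes (the heavy chains KIF5A, KIF5B and KIF5C, and the light chains KLC1, KLC2 and KLC4), 5 kinesin-2 genes, 6 kinesin-3 genes, 6 other kinesins, 10 dynein subunits, 6 dynactin subunits and 3 dynein regulators. i3Neurons are human neurons made by switching on a transcription factor with doxycycline in an induced pluripotent stem cell line, here WTC11. All groups come from this line, and per the labels' protocols all were replated on day 3 onto inserts with pores of 1 µm, through which neurites can grow while cell bodies stay above, and harvested on day 17. The soma side therefore also holds the neurites beside the cell bodies. The hnRNPA1 experiment held 6 libraries of hnRNPA1-knockdown neurites, 6 of non-targeting neurites, 6 of hnRNPA1-knockdown soma and 6 of non-targeting soma. The TDP43 experiment held 5 libraries of each of the same 4 kinds, with knockdown of TDP43. Untreated cells, which carried no guide RNA, gave 4 neurite and 4 soma libraries. Knockdown was by CRISPR interference, that is, transcription was repressed by a cutting-dead Cas9 that a guide RNA brings to its target, and the non-targeting cells carried a guide that matches no gene. How many guides each target had, and whether untreated cells held the repressor, the labels do not say.

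Of the 52 libraries 51 were used. Sample 5 of TDP43-knockdown soma, with a total of 541 counts, was excluded, so that group has 4 libraries. In units of 1000000 counts, neurite libraries held 6.26 to 15.0 in the hnRNPA1 experiment, 6.83 to 14.5 in the TDP43 experiment and 2.54 to 4.35 in untreated cells, and soma libraries held 8.00 to 19.4, 15.7 to 28.9 and 5.21 to 10.5 in the same order. Untreated libraries came from version 2 of the library kit and the knockdown experiments from version 3, so between them the kit cannot be told apart from the experiment and the guide. HNRNPA1, the target of the first knockdown, had 182 to 223 CPM (counts per 1000000, with TMM-scaled library sizes) in knockdown neurites against 548 to 623 CPM in non-targeting neurites, and 125 to 152 CPM in knockdown soma against 329 to 379 CPM in non-targeting soma. TARDBP, which encodes TDP43, had 36.9 to 48.5 CPM in knockdown neurites against 108 to 126 CPM in non-targeting neurites, and 18.7 to 20.6 CPM in knockdown soma against 106 to 118 CPM in non-targeting soma. All 8 neuronal markers were at or above 1 CPM in each of the 10 groups, and their summed level was higher in neurites than in soma, most so in untreated cells (12591 to 15908 CPM in neurites, 4752 to 5480 CPM in soma). Of the 8 markers 4 were higher in neurites and 3 lower, both in untreated and in non-targeting cells of either experiment, and NEFL was the most abundant in untreated neurites at 8060 CPM. The summed level of 6 neural progenitor markers was also higher in neurites, with 216 to 253 CPM against 75.3 to 86.5 CPM in soma in untreated cells, where NES, the most abundant of them, was at 156 CPM in neurites and 41.0 CPM in soma, as was that of 7 cycling cell markers, with 51.2 to 64.3 CPM against 23.4 to 37.5 CPM in untreated soma. The part of other cells in the results was not tested. In bulk RNA, fewer cells or processes of a kind and less RNA in each cannot be told apart.

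Kinesins walk along microtubules, most of them toward the plus end and so, in axons, away from the cell body. Kinesin-1 carries mitochondria, vesicles and RNA granules, kinesin-2 carries membrane cargo and ciliary components, and kinesin-3, above all KIF1A, carries synaptic and dense core vesicle precursors. Cytoplasmic dynein walks the other way and returns endosomes, autophagosomes and signals to the soma. It is built around the heavy chain DYNC1H1 with intermediate, light intermediate and light chains, needs the dynactin complex to move processively, and is regulated by LIS1 (PAFAH1B1) with NDE1 and NDEL1. Variants in KIF5A, KIF1A, DYNC1H1 and DCTN1 are known from motor neuron and axonal diseases, and TDP43 and hnRNPA1 are RNA-binding proteins linked to amyotrophic lateral sclerosis. TDP43 binds repeats of UG in RNA.

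The sequences shown first are those TDP43 is known for, the longest alternating TG runs of the members, read from GENCODE release 29 transcripts on the gene's strand of hg38. In the principal transcript of each of the 42 genes, 5 had an uninterrupted run of T and G in alternation of at least 10 bases, which is 11.9% of members, against 7.11% of 19636 protein-coding genes. The windows of 30 bases around the runs of KIF5C (in a 3′ UTR run of 46 bases, chr2:149024516-149024545, plus strand), DYNC1LI1 (3′ UTR, chr3:32526651-32526680, minus strand), PAFAH1B1 (3′ UTR, chr17:2684512-2684541, plus strand) and KIF2A (coding, chr5:62357700-62357729, plus strand) are printed 5′ to 3′, with the run in capitals.
KIF5C: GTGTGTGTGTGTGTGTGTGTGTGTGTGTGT
DYNC1LI1: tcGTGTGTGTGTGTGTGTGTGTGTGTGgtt
PAFAH1B1: ttattgacTGTGTGTGTGTGTGaaaacaga
KIF2A: cataggataTGTGTGTGTGTaagaaaacga
The hexamer TGTGTG occurred 27 times in the KIF5C transcript and 1 time in that of KIF1A, the member with the largest neurite to soma ratio. At least 1 copy was found in 69.0% of members and 63.1% of protein-coding genes. Principal transcripts of members have a median of 4507.5 bases against 2733.5 for protein-coding genes, and the shares above do not allow for this. Per kilobase the median was 0.398 copies of TGTGTG in members and 0.352 in protein-coding genes. These are matches of letters, and binding was not measured.

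The promoters of KIF1A and KIF5C are shown because these genes had the largest neurite to soma ratios of the members in untreated cells. They come from RefSeq for GRCh38.p14, 250 bases before the annotated start to 50 after it, on the gene's strand, at chr2:240820170-240820469 (minus) for KIF1A and chr2:148874977-148875276 (plus) for KIF5C. Capitals mark matches, on either strand, to 5 motifs searched: the GC box GGGCGG, the CRE TGACGTCA, the CCAAT box CCAAT, the E-box CACGTG and the TATA box TATAAA. Neighbouring GC boxes may share bases.
KIF1A: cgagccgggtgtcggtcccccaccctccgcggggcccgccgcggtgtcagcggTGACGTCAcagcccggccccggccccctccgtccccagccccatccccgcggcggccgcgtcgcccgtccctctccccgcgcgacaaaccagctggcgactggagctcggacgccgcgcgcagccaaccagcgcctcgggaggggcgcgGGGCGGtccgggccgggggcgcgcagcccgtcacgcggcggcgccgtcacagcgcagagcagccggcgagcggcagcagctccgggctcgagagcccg
KIF5C: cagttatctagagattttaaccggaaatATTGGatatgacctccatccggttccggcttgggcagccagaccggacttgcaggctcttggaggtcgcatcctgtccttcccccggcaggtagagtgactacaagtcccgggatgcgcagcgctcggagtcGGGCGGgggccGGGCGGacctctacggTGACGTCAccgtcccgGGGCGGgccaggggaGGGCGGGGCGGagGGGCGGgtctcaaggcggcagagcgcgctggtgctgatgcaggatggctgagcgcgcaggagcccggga
Promoters were matched for 34 of the 42 members. The CRE was found in 4 of them (KIF1A, KIF5C, KLC1 and PAFAH1B1), 11.8% of member promoters against 1.85% of 35116 promoters of the same length. The GC box was found in 88.2% of member promoters and 45.0% of all, and the CCAAT box in 23.5 and 34.6%. For a member only the promoter nearest the start of its principal transcript was taken. The 35116 are every promoter of that length in the source, so the sets are unlike.

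The levels of the members spanned several orders of magnitude. Per kilobase of exon, KIF5C (ENSG00000168280.18, chr2:148875250-149026759) was the highest member in untreated neurites, at 965 ± 82.0 CPM per kb (SD, n = 4), followed by KIF1A (ENSG00000130294.18, chr2:240713761-240821036) at 363 ± 56.0, KIF5A (ENSG00000155980.13, chr12:57549998-57586632) at 302 ± 16.6 and KIF1B (ENSG00000054523.20, chr1:10210805-10381603) at 298 ± 27.8 CPM per kb (hg38). By this measure KIF5A and KIF1B lay within each other's spread, and KIF1A was above them by about 1 SD of its own. The length counts every annotated exon, 16695 bases for KIF1A, 17720 for KIF1B and 6261 for KIF5A. Their principal transcripts have 8987, 10669 and 5824 bases, so the distances between these genes depend on the length used. In untreated soma KIF5C was again first at 125 ± 5.46 CPM per kb, KIF5A had 75.8 ± 7.24 and KIF1A only 32.6 ± 3.87 CPM per kb (n = 4 each). At the low end of untreated neurites were NDE1, a dynein regulator best known from dividing neural progenitors, with 0.387 CPM per kb and the light chain DYNLRB1 with 0.488 CPM per kb. The heavy chain DYNC1H1, which has 36852 bases of exon over all its transcripts, was the highest dynein subunit per gene, with 1222 CPM in untreated neurites and 1051 CPM in untreated soma. Some light chain and kinesin genes differed widely in level between untreated neurites and the non-targeting neurites of the hnRNPA1 experiment. KLC1, a cargo-binding light chain, had 21.5 to 32.2 CPM in untreated neurites and 123 to 147 CPM in the non-targeting neurites of the hnRNPA1 experiment, and KIF26A, a kinesin without motor activity, had 13.4 to 27.8 and 182 to 255 CPM in the same groups. Levels were not tested across experiments.

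In untreated cells the first question was which motor mRNAs are more abundant, relative to the TMM-scaled library size, in neurites than in soma. These sizes were 0.594 to 0.695 of the total counts in untreated neurites and 1.45 to 1.55 in untreated soma. Of 41 members tested 23 were higher in neurites and 3 lower at adjusted p under 0.05 (edgeR quasi-likelihood F test with Benjamini-Hochberg adjustment over all genes, as for every adjusted p below), beside 28.7% of all 18556 genes higher and 27.8% lower. The median log2 ratio of members was 0.39, against −0.21 for all genes. Nothing says that the numbered libraries of a group are separate cultures, so a p-value rests on the spread among these libraries alone, which could be technical. Scaling to plain library sizes in place of TMM lowered nearly all neurite values, and 7 members were then higher and 30 lower. Of all genes 16965 were then called, 2041 of them higher, with the median at −1.43. The strand setting of the counting is not given. Among kinesin genes KIF5C, KLC1, KLC2, KLC4, KIF3A, KIFAP3, KIF1C, KIF13A, KIF13B, KIF2A, KIF9 and KIF26B overlap genes on the other strand. So do DYNC1H1, DYNC1LI2, DYNLL1, DYNLRB1, DYNLT3, DCTN1, DCTN2, DCTN6, PAFAH1B1, NDE1 and NDEL1. Where exons overlap, reads of these members cannot be told apart from those of the other gene.

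**Figure D1:**
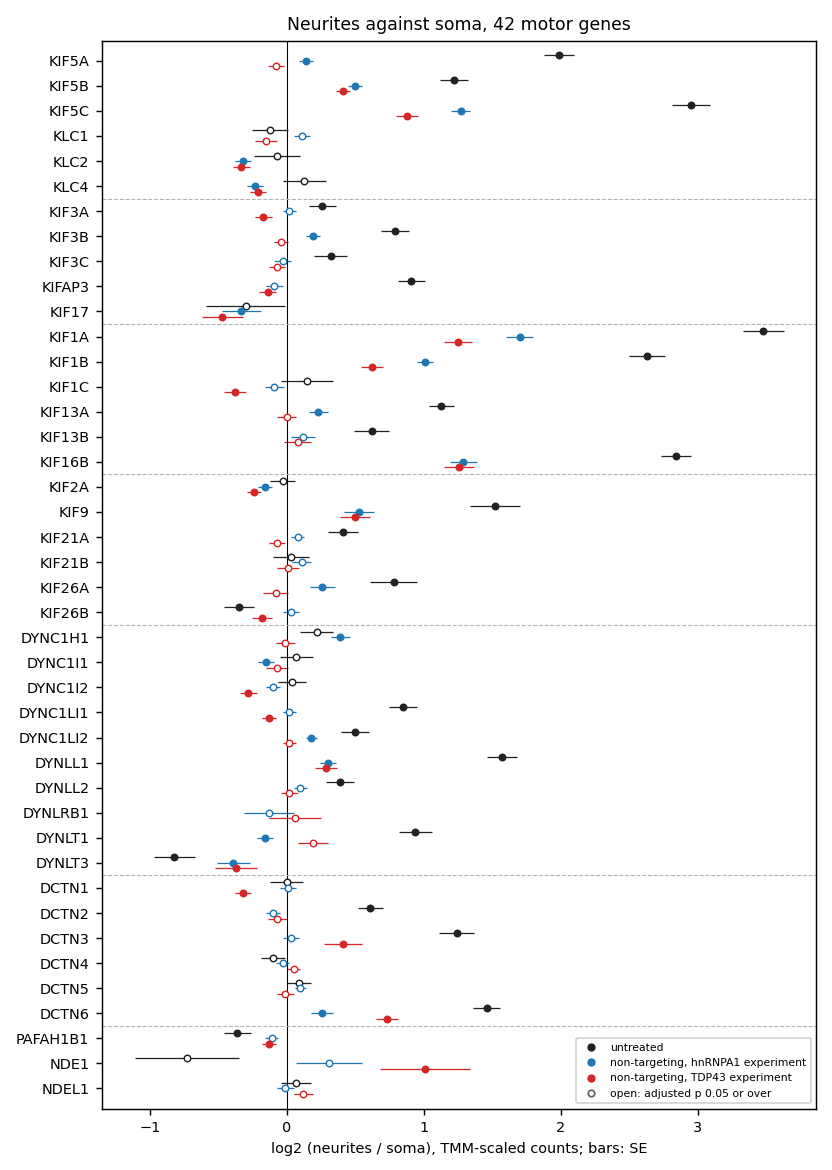
Log2 ratio of neurites to soma for each of the 42 motor genes (rows, grouped by dashed lines into the classes named in the text), in untreated cells, in non-targeting cells of the hnRNPA1 experiment and in non-targeting cells of the TDP43 experiment. Points are estimates from TMM-scaled counts with standard errors, filled where adjusted p is under 0.05, and DYNLRB1 has no untreated value because it did not pass the filter on low counts. The untreated values of KIF1A, KIF5C, KIF16B, KIF1B and KIF5A lie at 1.99 to 3.48, to the right of both sets of non-targeting cells.

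KIF1A, a kinesin-3 gene, had the largest ratio. It had 6338, 4764, 6984 and 6171 CPM in the 4 untreated neurite libraries, against 589, 491, 609 and 485 CPM in the 4 untreated soma libraries. Every neurite library was far above every soma library. The log2 ratio was 3.48 ± 0.15 (SE; adjusted p = 2.2e-14). KIF1B, whose product carries mitochondria and synaptic vesicle precursors, had 4564 to 5687 CPM in neurites against 794 to 899 CPM in soma, a log2 ratio of 2.63 ± 0.13. KIF16B, an endosomal motor, was a rare mRNA with 85.5 to 96.6 CPM in neurites against 11.6 to 13.8 CPM in soma, and its log2 ratio of 2.84 ± 0.11 was as large as that of the abundant motors. Of 6 kinesin-3 genes 5 were higher in neurites, and KIF1C, a motor of dense core vesicles and of mRNAs, had overlapping groups of 13.4 to 28.8 and 16.5 to 22.6 CPM.

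The kinesin-1 heavy chains were all higher in untreated neurites, and the light chains were not. KIF5C had 9574, 9388, 8708 and 7908 CPM in untreated neurites, against 1182, 1105, 1205 and 1112 CPM in untreated soma, with a log2 ratio of 2.95 ± 0.14 (adjusted p = 4.9e-14). KIF5A, the neuronal heavy chain, had 1882, 1824, 2038 and 1812 CPM in untreated neurites, against 505, 428, 521 and 444 CPM in untreated soma, with a log2 ratio of 1.99 ± 0.11. KIF5B, the heavy chain found in most cell types, had 554 to 615 CPM in neurites against 237 to 262 CPM in soma, and passed with a standard error of 0.10 on the log2 scale, though with library sizes its log2 ratio was −0.03. Heavy chain libraries did not overlap between the fractions. KLC1, KLC2 and KLC4 did overlap, and none of the 3 passed the test. Under library sizes KIF5C and KIF5A kept a positive ratio. KIF5C counts were fractional in 46 of the 51 libraries, more than for any other member, so some reads of this gene were shared with other genes when the authors counted them.

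Among kinesin-2 genes KIF3A, KIF3B, KIF3C and the accessory subunit KIFAP3 were higher in untreated neurites. KIFAP3 had 216 to 286 CPM in neurites against 127 to 147 CPM in soma. KIF17, a dendritic kinesin-2, had 4.70 ± 2.29 CPM in neurites and 6.25 ± 1.06 CPM in soma (SD, n = 4 each) and did not pass. Of the other kinesins, KIF9 (log2 1.52 ± 0.18), KIF21A and KIF26A were higher, KIF26B was lower (−0.35 ± 0.11), and KIF2A, a microtubule depolymerase, and KIF21B, a motor that limits microtubule growth, did not pass the test. KIF26B lost its call without neurite sample 4 (−0.20), sample 5 (−0.27) or sample 7 (−0.29).

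Of 9 dynein subunits tested 5 were higher in untreated neurites. DYNLL1, the light chain shared with other complexes, had 324, 292, 272 and 298 CPM in neurites, against 86.3, 87.3, 103 and 123 CPM in soma, with a log2 ratio of 1.57 ± 0.11. The light intermediate chains DYNC1LI1 and DYNC1LI2, which bind cargo adaptors, and the light chains DYNLL2 and DYNLT1 were also higher. DYNC1H1 was at 1164 to 1289 CPM in neurites and 857 to 1189.6 CPM in soma, and its log2 ratio of 0.22 ± 0.12 did not pass (adjusted p = 0.115), while it passed by DESeq2 (0.24, adjusted p = 0.046) and, in the other direction, with library sizes (−1.02, adjusted p = 2e-07). DYNLT3 was the member with the lowest called ratio, at 11.3 to 14.3 CPM in neurites against 20.5 to 25.2 CPM in soma (log2 −0.82 ± 0.15). Dynactin split by subunit. DCTN6 (59.0 to 67.0 CPM in neurites against 20.8 to 24.2 CPM in soma, log2 1.46 ± 0.10), DCTN3 (83.9 to 121 CPM against 36.0 to 52.7 CPM in soma) and DCTN2 were higher. DCTN1, the large subunit that binds microtubules and dynein, was at 206 to 289 CPM in neurites and 221 to 302 CPM in soma, with a log2 ratio of −0.00 ± 0.12 (−1.23 with library sizes, adjusted p = 3e-07). Of the regulators PAFAH1B1 was lower in neurites (log2 −0.36 ± 0.10), with all 4 neurite libraries, 229 to 266 CPM, below all 4 soma libraries, 291 to 355 CPM. Its call was lost without neurite sample 6 (−0.27, adjusted p = 0.057) or sample 7 (−0.24, adjusted p = 0.11).

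In the non-targeting cells the same comparison gave smaller ratios for the genes that led in untreated cells. In the hnRNPA1 experiment 14 members were higher and 7 lower in neurites (23.5 and 24.9% of all 19812 genes tested), with a median of 0.05 against −0.05 for all genes. In the TDP43 experiment 10 were higher and 13 lower (24.1 and 22.3% of 22014 genes), with medians of −0.02 and −0.03. KIF1A, KIF16B, KIF5C and KIF1B had the largest ratios in the hnRNPA1 experiment. In the TDP43 experiment KIF16B (1.26 ± 0.11), KIF1A, the rare NDE1 (1.01 ± 0.33, adjusted p = 0.0138), KIF5C, DCTN6 (0.73 ± 0.08) and KIF1B had the largest. NDE1 had only 0.323 to 0.907 CPM in these neurites and 0.267 to 0.439 CPM in their soma. It did not pass with library sizes (0.42, adjusted p = 0.31) or with no filter on low counts (0.93, adjusted p = 0.069). DCTN6 did not pass with library sizes (0.11, adjusted p = 0.45). With library sizes 5 members were higher and 30 lower in the hnRNPA1 experiment, and 2 higher and 33 lower in the TDP43 experiment. Of all genes 14040 and 16427 were then called, 1911 and 1891 of them higher. KIF1A had 3853 to 5761 CPM in non-targeting neurites of the hnRNPA1 experiment, against 1293 to 1717 CPM in its non-targeting soma, and a log2 ratio of 1.25 ± 0.10 in the TDP43 experiment. KIF5C had log2 ratios of 1.27 ± 0.07 and 0.88 ± 0.08. In the knockdown cells 13 members were higher and 1 lower in hnRNPA1-knockdown neurites than in hnRNPA1-knockdown soma (19.4 and 16.4% of genes), and 18 higher and 9 lower in TDP43-knockdown neurites than in TDP43-knockdown soma (28.7 and 29%). With library sizes these were 5 higher and 31 lower, and 5 higher and 25 lower. All genes then gave 14532 and 15736 calls, 1155 and 2171 of them higher. KIF5B, KIF5C, KIF1A, KIF1B, KIF16B and DYNLL1 were higher in neurites in untreated cells, in both sets of non-targeting cells and in both sets of knockdown cells. With library sizes KIF5B was at −0.20 in non-targeting cells of the TDP43 experiment, and DYNLL1 at −0.05 in both the knockdown and the non-targeting cells of the hnRNPA1 experiment. KIF1B (0.02, adjusted p = 0.89) and KIF5C (0.28, adjusted p = 0.096) did not pass with that scaling in non-targeting cells of the TDP43 experiment. Nor did KIF5B in hnRNPA1-knockdown cells (0.08, adjusted p = 0.22) or TDP43-knockdown cells (0.06, adjusted p = 0.74). DYNLT3 was lower in neurites in untreated cells and in both sets of non-targeting cells, but in the TDP43 experiment its call was lost in 7 of the 10 fits that left out 1 library (log2 −0.50 to −0.26). DCTN4 and NDEL1 passed in none of the 5 comparisons of neurites with soma, and DYNLRB1 in none of the 4 it entered.

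KIF5A differed far more between the fractions in untreated cells than in the non-targeting cells. In non-targeting neurites it had 646 to 724 CPM in the hnRNPA1 experiment against 579 to 684 CPM in soma, and 486 to 577 CPM in the TDP43 experiment against 528 to 586 CPM in soma. Its log2 ratio was 0.14 ± 0.05 in the hnRNPA1 experiment (−0.21 with library sizes) and −0.08 ± 0.06 in the TDP43 experiment, where it did not pass (adjusted p = 0.256). The difference between the untreated ratio and the non-targeting ratio was 1.59 ± 0.11 for the hnRNPA1 experiment (adjusted p = 3.0e-16) and 1.89 ± 0.11 for the TDP43 experiment (adjusted p = 9.2e-18), in 1 fit of untreated and non-targeting libraries. In that fit the untreated ratio was larger for 16 members and smaller for 8 against the hnRNPA1 experiment (13.1 and 24.0% of 29425 genes), and larger for 19 and smaller for 5 against the TDP43 experiment (13.5 and 24.1%). The median of all genes was −0.41 and −0.48 in these differences, and the split was 19 and 3, and 25 and 2, with median-ratio size factors, which put those medians at −0.23 and −0.35. With library sizes it was 6 and 24, and 9 and 12, with medians of −1.01 and −0.92. Under that scaling 16337 and 14770 of all genes were called, 1967 and 2287 of them larger. Median-ratio size factors called 9112 and 9960 genes, 4610 and 4598 of them larger. KIF1A differed by 1.52 ± 0.16 and 2.04 ± 0.17, KIF5C by 1.42 ± 0.11 and 1.88 ± 0.12, and DYNC1H1 by −0.44 ± 0.12 and 0.04 ± 0.13. Between the 2 sets of non-targeting cells, which were made with 1 version of the kit, 5 members had a larger ratio in the hnRNPA1 experiment and none a larger one in the TDP43 experiment by edgeR (1.59 and 1.47% of genes). By DESeq2 these counts were 4 and 1, beside 1106 of all genes called, 421 of them larger in the hnRNPA1 experiment. At unadjusted p under 0.05 they were 18 and 2 members, a threshold at which all genes were not counted. The 5 were KIF1A (0.53 ± 0.15), DYNC1H1 (0.48 ± 0.11), KIF1B (0.47 ± 0.11), KIF5C (0.46 ± 0.11) and KIF3B (0.31 ± 0.09). KIF1A lost its call in 7 and KIF3B in 8 of the 10 fits that left out 1 library of the TDP43 experiment.

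**Figure D2:**
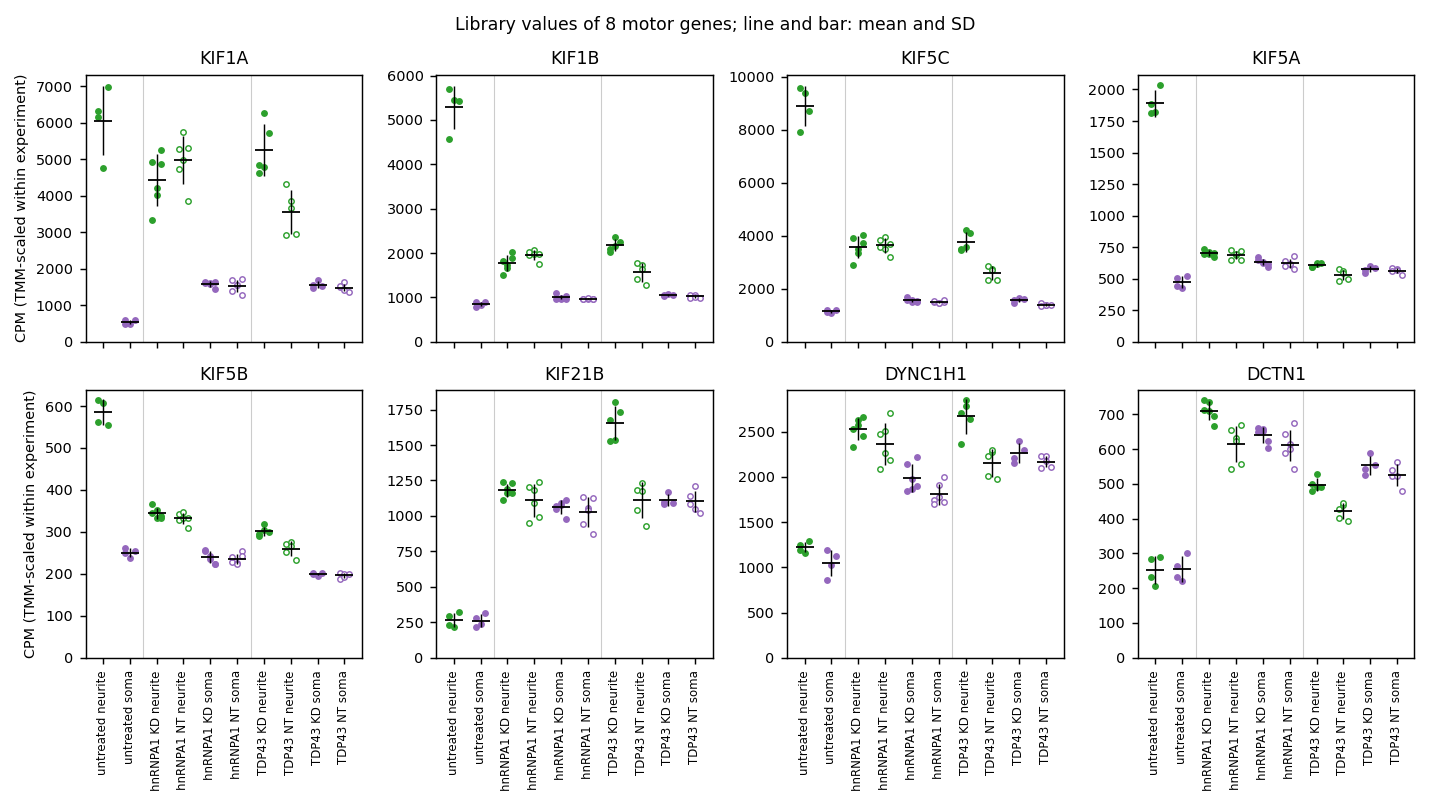
CPM, scaled within each experiment, of 8 motor genes in every library (points) with the mean and SD of each group (black), on linear axes that start at 0. Neurites are green and soma purple, non-targeting libraries are open, and grey lines part the untreated, hnRNPA1 and TDP43 experiments. KIF1A, KIF1B and KIF5C stand higher in neurites than in soma in each experiment, KIF5A most widely in untreated cells, and all 5 TDP43-knockdown neurite libraries of KIF1A lie above all 5 non-targeting ones.

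With knockdown of hnRNPA1 few motor genes passed the test in either fraction, and in neurites their share was near that of all genes. In soma 1 member passed, KIFAP3, which was lower (log2 −0.21 ± 0.06, adjusted p = 0.0206), beside 3.30% of all genes lower and 3.79% higher. This call was lost without knockdown soma sample 5 (−0.20) or sample 6 (−0.18) or non-targeting soma sample 3 (−0.17). In neurites 4 members were higher and 2 lower (8.96 and 7.21% of genes). KIFAP3, the subunit that links the kinesin-2 motor to cargo, had 78.8, 83.9, 75.0, 88.8, 84.4 and 79.7 CPM in hnRNPA1-knockdown neurites, with a median below that of the non-targeting neurites at 109, 94.0, 107, 98.3, 95.4 and 84.5 CPM. The groups overlapped only where 1 non-targeting library, at 84.5 CPM, lay below 1 knockdown library, at 88.8 CPM, and the log2 change was −0.27 ± 0.06 (adjusted p = 0.00279). KIF26A had 347, 325, 361, 279, 299 and 317 CPM in knockdown neurites, against 190.3, 226, 182, 239, 238 and 255 CPM in non-targeting neurites. All 6 knockdown libraries lay above all 6 others, and the log2 change was 0.54 ± 0.09 (adjusted p = 6.4e-05). DCTN1 had 667 to 742 CPM in knockdown neurites against 544 to 669 CPM in non-targeting neurites, a log2 change of 0.21 ± 0.06. DCTN2, the dynactin subunit also called dynamitin, changed by 0.19 ± 0.06 and the dynein intermediate chain DYNC1I2 by 0.15 ± 0.05. KIF9, a kinesin known from motile cilia, was lower, at 5.41 to 9.11 CPM against 6.85 to 12.0 CPM in non-targeting neurites. KIF9 and DYNC1I2 each lost their call in 8 of the 12 fits that left out 1 library, DCTN2 without non-targeting neurite sample 1 (0.17) or sample 3 (0.16), and DCTN1 without non-targeting neurite sample 3 (0.16). With the 7SL share of each library as a covariate, an alternative chosen after seeing the data, KIFAP3 in soma (−0.15, adjusted p = 0.21), DCTN1, DCTN2, DYNC1I2 and KIF9 did not pass and KIF1A in neurites did (−0.36, adjusted p = 0.0013). The summed neural progenitor markers were at 563 to 703 CPM in knockdown neurites against 445 to 553 CPM in non-targeting neurites, and their part in the result was not tested. KIF1A, KIF5A, KIF5B, KIF5C and DYNC1H1 did not pass in either fraction, with log2 changes of −0.17 to 0.09 in neurites and 0.02 to 0.14 in soma. In neurites KIF1A passed with library sizes (−0.31, adjusted p = 0.0016) and with no filter on low counts (−0.21, adjusted p = 0.027), and KIF5C with library sizes (−0.17, adjusted p = 0.032), where DCTN1, DCTN2 and DYNC1I2 were at 0.08, 0.05 and 0.01 and did not pass. With library sizes 1 member was higher and 13 lower in hnRNPA1-knockdown neurites, with the median of all genes at −0.14. Of all genes 4430 were then called, 605 of them higher. DCTN1, DCTN2 and DYNC1I2 did not pass with no filter either (0.17, 0.15 and 0.11). The neurite to soma ratio changed for none of the 42 members by edgeR (0.177% of all genes passed in either direction), nor by DESeq2. An unadjusted p under 0.05 was found for 4 members, and all genes were not counted at that threshold.

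Knockdown of TDP43 left the soma levels of most motor genes within their spread. There 1 member was higher and 5 lower (9.41 and 9.53% of 22014 genes). KIF17 had 3.08, 4.06, 3.29 and 3.40 CPM in TDP43-knockdown soma, against 4.55, 7.60, 5.76, 6.92 and 7.30 CPM in non-targeting soma. The groups did not overlap, and the log2 change was −0.88 ± 0.14 (adjusted p = 2.4e-05). KIF26B, a relative of KIF26A, had 151, 164, 161 and 163 CPM in knockdown soma, against 232, 238, 217, 229 and 214 CPM in non-targeting soma, all lower, with a log2 change of −0.50 ± 0.08. The dynein intermediate chain DYNC1I1, which is the neuronal form, was also lower (20.3 to 23.3 CPM against 23.7 to 30.4 CPM in non-targeting soma, log2 −0.36 ± 0.08), as were KIF13B (−0.30 ± 0.10) and KIF1C (−0.21 ± 0.07). Leaving out 1 library ended the call of KIF1C in 8 of 9 fits and that of KIF13B in 5. DYNLT3 was higher, at 6.49 to 7.48 CPM in knockdown soma against 3.75 to 5.83 CPM in non-targeting soma (log2 0.52 ± 0.12). With sample number as a block 3 members passed in soma, all lower, beside 1751 of all genes. DYNLT3, KIF13B and KIF1C did not pass with the block.

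In neurites TDP43 knockdown moved 18 of the 42 members, 15 of them higher and 3 lower (14.0 and 10.9% of genes). KIF1A had 4859.5, 6283, 5716, 4640.4 and 4783 CPM in TDP43-knockdown neurites, against 4321, 3857, 2948, 2933 and 3674 CPM in non-targeting neurites. No knockdown library fell into the range of the others, and the log2 change was 0.57 ± 0.10 (adjusted p = 1.2e-04). In soma KIF1A had 1478 to 1692 CPM with the knockdown and 1378 to 1643 CPM without it (log2 0.07 ± 0.11, adjusted p = 0.714). KIF21B had 1527, 1806, 1735, 1673 and 1534 CPM in knockdown neurites, against 1186, 1229, 927, 1042 and 1174 CPM in non-targeting neurites, a log2 change of 0.57 ± 0.08. KIF5C had 3484, 4208, 4104, 3450.5 and 3559 CPM in knockdown neurites, against 2876, 2737, 2314, 2315 and 2715 CPM in non-targeting neurites, a log2 change of 0.54 ± 0.08. These groups too were fully apart. The other large increases were in KIF26A (0.54 ± 0.09), KIF1B (0.48 ± 0.08), KIF3B (0.43 ± 0.05), KIF1C (0.42 ± 0.08) and KIF3C (0.39 ± 0.06). All 3 kinesin-1 heavy chains rose, KIF5B by 0.21 ± 0.05 and KIF5A by 0.19 ± 0.06, while none of the 3 light chains passed. DYNC1H1 rose by 0.31 ± 0.07, with 2361, 2847, 2643, 2713 and 2785 CPM in knockdown neurites against 2228, 2279.6, 1977, 2006 and 2299.9 CPM in non-targeting neurites. DCTN1 rose by 0.24 ± 0.06. KIF26A and DCTN1 were thus higher in neurites with both knockdowns, each against its own non-targeting cells. KIF9 was higher as well, opposite in direction to its change with hnRNPA1 knockdown. KIF17 (−0.66 ± 0.19), DYNC1I1 (−0.40 ± 0.09) and KIF26B (−0.21 ± 0.08) fell, and these were also lower in soma. With library sizes 8 members were higher and 1 lower, and KIF5A, KIF5B, DYNC1H1, DCTN1, DYNC1I1 and KIF26B did not pass. Of all genes 2580 then passed, 1792 of them higher. KIF26B lost its neurite call in 8 of the 10 fits that left out 1 library (log2 −0.29 to −0.16). With sample number as a block 12 members were higher and 1 lower in neurites, beside 3345 of all genes called. KIF17, KIF26B and KIF5A did not pass with the block. The summed level of the 8 neuronal markers was 6630 to 7416 CPM in knockdown neurites against 5252 to 6445 CPM in non-targeting neurites, and that of the neural progenitor markers 435 to 531 CPM against 352 to 418 CPM. Their part in the result was not tested. The median change of all members was 0.02, against −0.03 for all genes. For 14 members every knockdown neurite library lay above every non-targeting one, and for KIF17 every one lay below. How many of all genes were apart in this way was not counted. In the 4 comparisons of a knockdown with its non-targeting cells 19 members passed in none, and all genes were not counted in this way either.

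**Figure D3:**
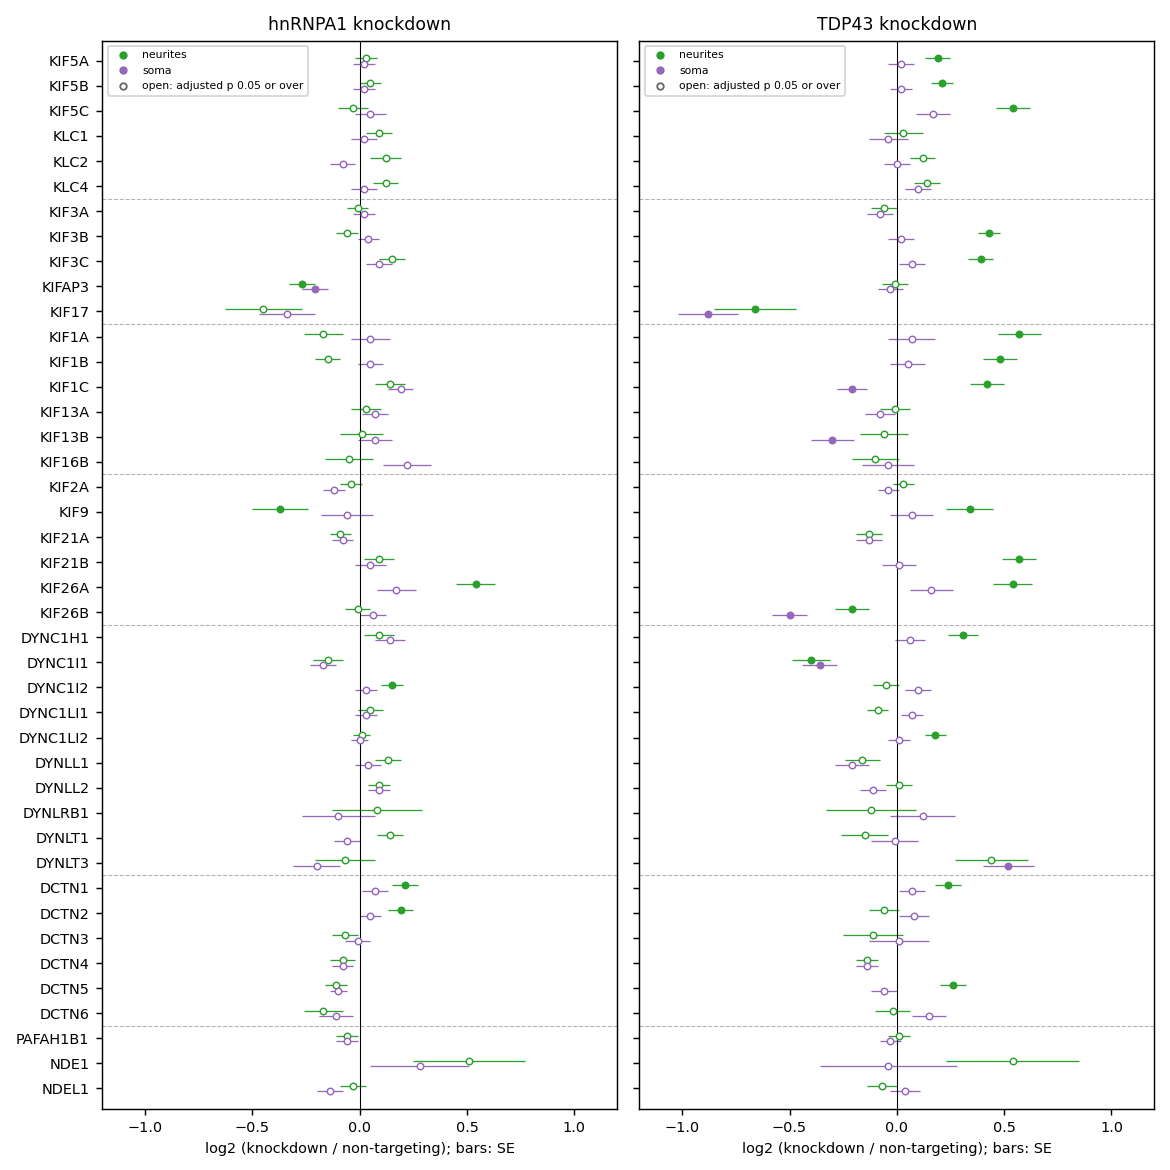
Log2 change of each motor gene on knockdown against non-targeting in neurites (green) and soma (purple), for hnRNPA1 on the left and TDP43 on the right, with standard errors and filled points where adjusted p is under 0.05. With TDP43 knockdown the green points of KIF1A, KIF21B, KIF5C, KIF26A and KIF1B lie at 0.48 to 0.57, and KIF17 and DYNC1I1 lie below 0 in both fractions.

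The neurite to soma ratio of TDP43-knockdown cells was larger than that of non-targeting cells for 8 members and smaller for none by edgeR (5.81 and 4.67% of genes). By DESeq2 the counts were 10 and 0, beside 2546 of all genes called, 1505 of them larger. At unadjusted p under 0.05 they were 13 and 1 members, a threshold at which all genes were not counted. The 8 by edgeR were KIF1C (0.62 ± 0.11), KIF21B (0.56 ± 0.11), KIF1A (0.50 ± 0.15), KIF1B (0.42 ± 0.11), KIF3B (0.41 ± 0.08), KIF5C (0.37 ± 0.11), KIF3C (0.32 ± 0.08) and DCTN5 (0.32 ± 0.09). KIF5A (0.17 ± 0.08), KIF5B (0.19 ± 0.07), DYNC1H1 (0.25 ± 0.10) and DCTN1 (0.16 ± 0.08) did not pass by edgeR, while KIF5B (adjusted p = 0.026) and DYNC1H1 (adjusted p = 0.022) passed by DESeq2. With library sizes 1 member and 328 of all genes passed. KIF5C lost its call in 9 and KIF1A in 6 of the 19 fits that left out 1 library. The median change was −0.07 over the 10 dynein subunits and 0.33 over the 6 kinesin-3 genes. KIF1A, KIF1B, KIF3B and KIF5C also had a larger ratio in the non-targeting cells of the hnRNPA1 experiment than in those of the TDP43 experiment, given above, and both comparisons are set against the same non-targeting libraries. The difference between the knockdowns was tested in 1 fit of both experiments. In neurites the effect of hnRNPA1 knockdown was lower than that of TDP43 knockdown for 10 members and higher for none by edgeR (10.5 and 6.37% of genes). By DESeq2 the counts were 13 and 3, beside 3992 of all genes called, 1553 of them higher. At unadjusted p under 0.05 they were 15 and 5 members, and all genes were not counted there. The 10 by edgeR were led by KIF1A (−0.75 ± 0.14), KIF9 (−0.72 ± 0.17), KIF1B (−0.64 ± 0.09), KIF5C (−0.58 ± 0.10), KIF3B (−0.51 ± 0.08) and KIF21B (−0.50 ± 0.10). In soma KIF26B (0.55 ± 0.10) and KIF1C (0.39 ± 0.10) were higher and DYNLT3 (−0.73 ± 0.17) lower with hnRNPA1 knockdown relative to TDP43 knockdown (6.12 and 6.59% of genes).

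An abundant noncoding RNA differed between the neurite libraries of the TDP43 experiment. The share of counts from 7SL, the RNA of the signal recognition particle, was 20.6, 31.7, 7.97, 6.01 and 5.65% in knockdown neurites and 21.4, 18.8, 45.7, 33.9 and 17.2% in non-targeting neurites. It was 14.1 ± 2.91% in hnRNPA1-knockdown neurites and 10.4 ± 2.46% in their non-targeting neurites (SD, n = 6), and the group means of soma were 0.492 to 3.02%. The 2 knockdown neurite libraries whose share lay within the non-targeting range, at 20.6 and 31.7%, had 4859.5 and 6283 CPM of KIF1A, above the highest non-targeting library at 4321 CPM. With the share as a covariate, an alternative chosen after seeing the data, 3354 of all genes passed in TDP43-knockdown neurites, 2086 of them higher. Of the members 10 rose and 2 fell, 11 of them among the 18 above. KIF17 (−0.64, adjusted p = 0.072), KIF26B (−0.24), KIF5A (0.14) and KIF5B (0.16, adjusted p = 0.063) were not among them. The ratio change then passed for 1150 of all genes, 673 of them higher. It passed for 3 members, KIF1C, KIF21B and KIF3B, while KIF1A was at 0.51 (adjusted p = 0.057), KIF1B at 0.38 (adjusted p = 0.061) and KIF5C at 0.35 (adjusted p = 0.087). The part of 7SL in the result was not tested.

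**Figure D4:**
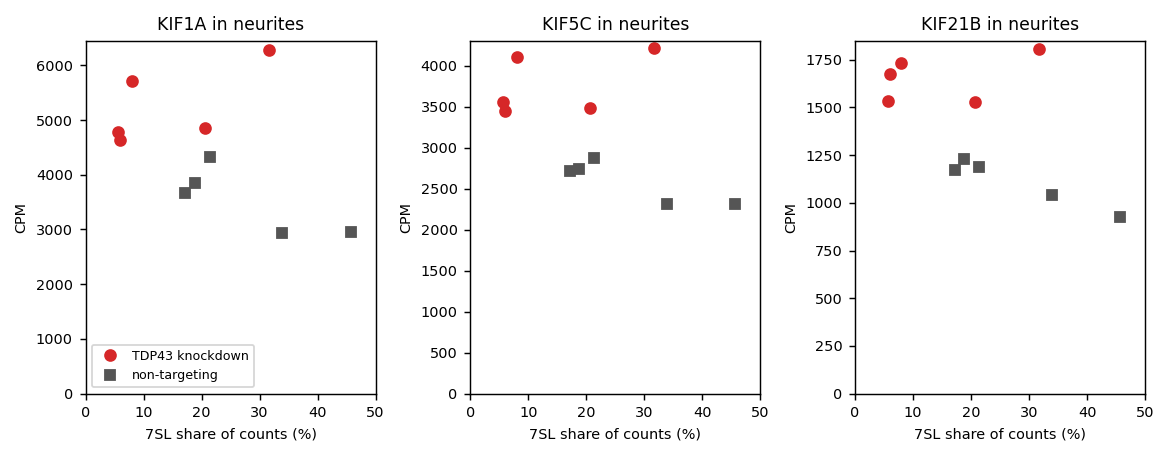
CPM of KIF1A, KIF5C and KIF21B in the 10 neurite libraries of the TDP43 experiment (TDP43-knockdown circles, non-targeting squares) against the share of counts from 7SL RNA in the same library. For each gene the 5 knockdown libraries lie above the 5 non-targeting ones, including the knockdown libraries with shares of 20.6 and 31.7%.

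The change of ratio with TDP43 knockdown was larger for members with longer transcripts. Over the 42 members the change of ratio had a Spearman correlation of 0.75 with the length of the principal transcript and 0.55 with the total exon length of the gene, while over 14290 protein-coding genes the correlation with exon length was 0.08. For the difference in ratio between the 2 sets of non-targeting cells the members gave 0.70 and 0.69, and all protein-coding genes 0.20 with exon length. Both comparisons rest on the same non-targeting libraries of the TDP43 experiment. For the hnRNPA1 knockdown the change of ratio gave −0.50 and −0.35. These are correlations across genes of the same libraries, which are not independent, and are given as a description. Members with long transcripts in this set are mostly kinesin motors and members with short ones mostly light chains and small dynactin subunits. The part of transcript length in the result was not tested.

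**Figure D5:**
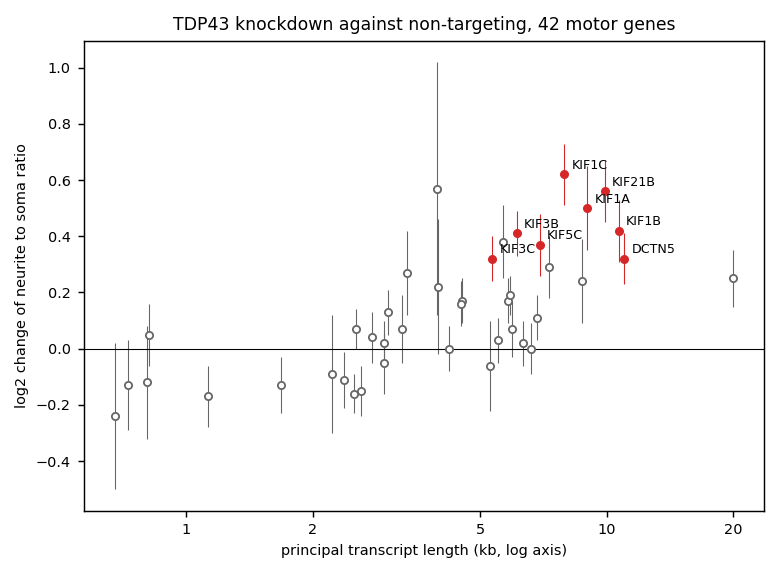
Change of the neurite to soma ratio on TDP43 knockdown (log2, with standard errors) against the length of the principal GENCODE transcript (kb, log axis) for the 42 motor genes. The 8 filled and named genes passed at adjusted p under 0.05, and the changes of longer transcripts lie higher, with a Spearman correlation of 0.75.

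Among the genes with a TG run of at least 10 bases, printed above for 4 of them, KIF5C rose in TDP43-knockdown neurites, and DYNC1LI1, PAFAH1B1, KIF2A and DYNLL2 passed in neither fraction, with log2 changes of −0.09 to 0.03 in neurites and −0.11 to 0.07 in soma. In neurites KIF1A, with 1 TGTGTG, changed by 0.57 ± 0.10 and KIF5C, with 27, by 0.54 ± 0.08, a difference within their errors. Only principal transcripts were searched, without introns, and the part of TG runs in these changes was not tested.

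The other genes of the motor pathway, 47 genes in 5 lists, were counted beside the members. In untreated cells 20 were higher in neurites and 5 lower of 41 tested, beside 28.7 and 27.8% of all genes. The cargo adaptors, which join motors to cargo, had 8 higher and 2 lower of 11, led by HOOK3 (log2 3.23 ± 0.12), an activating adaptor of dynein, and MAPK8IP3 (1.52 ± 0.17), the JIP3 adaptor of kinesin-1 and dynein. The mitotic kinesins, which serve the spindle of dividing cells, had 5 higher and none lower of 11 in untreated cells and 10 higher and 1 lower of 11 in the non-targeting cells of the TDP43 experiment (24.1 and 22.3% of all genes), beside the cycling markers given above. Dynactin subunits outside the 6 members had 3 higher and 1 lower of 6 in untreated cells, but none higher and 5 lower in the non-targeting cells of the hnRNPA1 experiment (23.5 and 24.9% of all genes). With TDP43 knockdown 10 of the 42 pathway genes tested were higher and 6 lower in neurites, with a median of −0.01 (14.0 and 10.9% of all genes), and 4 were higher and 8 lower in soma (9.41 and 9.53%). Of the lists, 7 of the 11 cargo adaptors rose in neurites and none fell, with a median of 0.29, led by MAPK8IP3 (0.55 ± 0.07) and SPAG9, the JIP4 adaptor (0.38 ± 0.06). ACTR1A, the actin-related protein of the dynactin filament, fell by 0.37 ± 0.06 in neurites and by 0.51 ± 0.06 in soma. With hnRNPA1 knockdown 1 of the 42 pathway genes tested passed in soma, the adaptor HOOK1, which was lower (log2 −0.38 ± 0.09), beside 3.79% of all genes higher and 3.30% lower, and in neurites 6 were higher and 3 lower (8.96 and 7.21%). The change of the neurite to soma ratio passed for 3 higher and 3 lower of them with TDP43 knockdown (5.81 and 4.67%).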

How the data were processed

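The deposited table holds estimated counts for 63241 genes in 52 libraries, which per the submitters' processing notes the authors made with STAR 2.7.11b for alignment (genome build hg38) and featureCounts, from Subread 2.0.6, for counting. Each library started from 10 ng of total RNA, per the labels' protocols. Which annotation release and strand setting were used, and how multimapping reads were handled, is not given in these sources. Among nonzero values 81.1% were whole within 0.005, so some reads were split between genes, and values were rounded for the tests. Library totals are given with the results. The 1 library under 100000 counts was left out, and none of 108 pairs of libraries of a group agreed within sampling noise (chi-square per degree of freedom 1.91 to 161).

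Groups were taken from the sample titles. Each experiment was fitted alone with edgeR 4.0.16 in R 4.3.3 (TMM, filterByExpr, 1 coefficient per group, 2-sided quasi-likelihood F test, Benjamini-Hochberg adjustment over all genes of a comparison, calls at adjusted p under 0.05), and joint fits gave the differences between experiments. Log2 values are given with their standard error and CPM with the SD or range. The fitting code was tested on simulated data. Alternatives were other scalings, DESeq2 1.42.0, no filter, removal of 7SL and ribosomal RNA genes, sample number as a block, leaving out each library, and the 7SL share as a covariate. Transcripts and positions came from GENCODE release 29 and promoters from RefSeq. For each comparison the text gives fold changes of at most 8 called members a direction, beside KIF1A, KIF5A, KIF5B, KIF5C, DYNC1H1 and DCTN1, and of at most 2 called genes a pathway list. Members and lists were chosen with earlier results of these data known.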

Additional observations from a re-analysis of the deposited data

Results flagged for a closer look

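In each group of 4 to 6 libraries the highest or lowest CPM of a member was set against its group, and 24 of 420 combinations of gene and group held a library far from the rest by Dixon's test, where chance gives about 1 in 20. In hnRNPA1-knockdown soma sample 3 this was KLC2 at 115, KIF1A at 1441 and DYNLL1 at 72.0 CPM, and in non-targeting soma sample 3 of that experiment KLC1 at 109.9, KIF16B at 8.06 and DCTN6 at 24.2 CPM. Other values in that experiment were KIF21A at 427 CPM in knockdown neurite sample 4, KLC4 at 48.1 CPM in non-targeting neurite sample 4, KIF1B at 1753 CPM in non-targeting neurite sample 3 and NDE1 at 1.07 CPM in non-targeting soma sample 5. In TDP43-knockdown cells they were KIF2A at 147 CPM in neurite sample 5, DYNC1LI1 at 75.0 CPM in neurite sample 2, KIF3C at 483 and KIF21B at 1172 CPM in soma sample 2, DCTN3 at 75.3 CPM in soma sample 3 and KIF1C at 21.0 CPM in soma sample 4. In the non-targeting cells of the TDP43 experiment they were NDE1 at 0.323 CPM in neurite sample 6, KIF1C at 30.3 and DYNC1LI1 at 94.8 CPM in soma sample 5 and KIF16B at 7.19 CPM in soma sample 1. In untreated cells they were KIF13A at 89.1 CPM in neurite sample 6 and 35.9 CPM in soma sample 7, and KIF1C at 22.6 and NDEL1 at 50.8 CPM in soma sample 4.

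The other results listed here are differences between groups that passed edgeR's test of the difference itself, all on the log2 scale, with standard errors given above for the main ones. The neurite to soma ratio of TDP43-knockdown cells exceeded that of non-targeting cells by 0.62 for KIF1C, 0.56 for KIF21B, 0.50 for KIF1A, 0.42 for KIF1B, 0.41 for KIF3B, 0.37 for KIF5C and 0.32 for both KIF3C and DCTN5.

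The untreated ratio minus that of the non-targeting cells of the hnRNPA1 experiment was positive for KIF5A (1.59), KIF1A (1.52), KIF5C (1.42), KIF1B (1.35), KIF16B (1.29), DYNLL1 (1.00), DCTN3 (0.95), DCTN6 (0.94) and KIF5B (0.46), and negative for NDE1 (−1.30), DYNLT3 (−0.70), KIF26B (−0.65), PAFAH1B1 (−0.52), KLC1 (−0.49), DYNC1H1 (−0.44), DCTN4 (−0.34) and DCTN5 (−0.28). Against the non-targeting cells of the TDP43 experiment it was positive for KIF1A (2.04), KIF5A (1.89), KIF5C (1.88), KIF1B (1.82), KIF16B (1.4), DYNLL1 (1.09), KIF13A (0.95), KIFAP3 (0.86) and KIF5B (0.62), and negative for NDE1 (−1.92), DYNLT3 (−0.64), PAFAH1B1 (−0.42), KIF26B (−0.36) and DCTN4 (−0.34). Kit version, experiment and guide cannot be told apart in these differences. Between the hnRNPA1 and TDP43 experiments the non-targeting ratio differed by 0.53 for KIF1A, 0.48 for DYNC1H1, 0.47 for KIF1B, 0.46 for KIF5C and 0.31 for KIF3B.

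The effect of hnRNPA1 knockdown minus that of TDP43 knockdown was 0.55 for KIF26B, 0.39 for KIF1C and −0.73 for DYNLT3 in soma. In neurites it was −0.75 for KIF1A, −0.72 for KIF9, −0.64 for KIF1B, −0.58 for KIF5C, −0.51 for KIF3B, −0.50 for KIF21B, −0.39 for DCTN5 and −0.28 for KIFAP3.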

How the results depend on the processing

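Scaling by plain library sizes moved the results most, since it put the median of all genes at −1.43 in untreated neurites against soma, at −0.63 to −0.40 in the other comparisons of neurites with soma, and at −0.14 in hnRNPA1-knockdown against non-targeting neurites. Neurites against soma then gave 37 called members in untreated cells, 35 in each set of non-targeting cells, 36 in hnRNPA1-knockdown and 30 in TDP43-knockdown cells. With counts of all genes in brackets, hnRNPA1 knockdown gave 2 (1213) in soma and 14 (4430) in neurites. TDP43 knockdown gave 3 (1677) in soma, 9 (2580) in neurites and 1 (328) for its ratio change. The untreated ratio gave 30 (16337) and 21 (14770) against the hnRNPA1 and TDP43 experiments, and 9 (1360) differed between these experiments. The difference between knockdowns in soma gave 2 (1293). In untreated cells 7 members were then higher and 30 lower, against 23 and 3 with TMM, beside 16965 of all genes called, 2041 of them higher. Among the genes named for each comparison, those that passed under at least 1 of the scalings and had the other sign with library sizes were KIF5B −0.03 and DYNC1H1 −1.02 in untreated cells, DYNLL1 −0.05, KIF5A −0.21 and DCTN1 −0.35 in hnRNPA1 non-targeting cells, KIF9 −0.11 and KIF5B −0.20 in TDP43 non-targeting cells, DYNLL1 −0.05, DYNC1H1 −0.09, KIF5A −0.28 and DCTN1 −0.29 in hnRNPA1-knockdown cells, KIF5A −0.45 and DYNC1H1 −0.31 in TDP43-knockdown cells, and −0.15 for KIF5B in the untreated ratio against hnRNPA1 non-targeting cells.

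With all genes again in brackets, median-ratio size factors gave 6 members (3278), 3 of them higher, for hnRNPA1 knockdown in neurites. They gave 22 (9112) and 27 (9960) for the untreated ratios and 4 (723) between the non-targeting sets. DESeq2 gave 2 (1479) and 8 (3302) for hnRNPA1 knockdown in soma and neurites, and 21 (8760) and 28 (9747) for the untreated ratios. It gave 5 (1106) between the non-targeting sets and 16 (3992) for the difference between knockdowns in neurites. With no filter the counts were 10 (8265) in hnRNPA1-knockdown and 25 (15844) in TDP43-knockdown neurites against soma and 5 (2679) for hnRNPA1 knockdown in neurites. With the 7SL share as a covariate, chosen after seeing the data, they were 0 and 4 for hnRNPA1 knockdown in soma and neurites and 3 for the ratio change with TDP43 knockdown. Beside these 666, 1620 and 1150 of all genes were called. The labels do not say whether sample numbers pair the libraries. Correlations of same-numbered libraries ran from −0.21 to 0.39 and no comparison had all pairs over 0.1, so the main fits did not pair them. TDP43-knockdown neurites and soma (4 of 4) and TDP43-knockdown and non-targeting soma (3 of 3) had every library closest to its own number. With sample number as a block, 3 members (1751) were called for TDP43 knockdown in soma and 8 (1325) between the non-targeting ratios. Of 204 values of named genes 195 kept their side of the threshold. Those of TDP43 knockdown that did not pass with the block were DYNLT3 (0.47), KIF13B (−0.37) and KIF1C (−0.18) in soma and KIF17 (−0.46), KIF26B (−0.15) and KIF5A (0.20) in neurites.

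With all genes in brackets, leaving out 1 library at a time gave 24 to 26 called members (8709 to 10402) in untreated cells. It gave 19 to 22 (8869 to 9715) and 18 to 22 (9289 to 10035) in hnRNPA1 and TDP43 non-targeting cells. In the knockdown cells it gave 10 to 14 (6370 to 7115) and 24 to 28 (11813 to 12376). For hnRNPA1 knockdown it gave 0 to 2 (997 to 1519) in soma and 3 to 6 (2243 to 3392) in neurites. TDP43 knockdown gave 4 to 6 (3237 to 3971) in soma, 16 to 22 (4697 to 5402) in neurites and 6 to 9 (1638 to 2484) for its ratio change. Between the non-targeting ratios the range was 3 to 6 (488 to 974). The difference between knockdowns gave 3 to 5 (2394 to 2959) in soma and 8 to 15 (3330 to 3894) in neurites. Of 2349 values of named genes 2199 kept their side of the threshold, and those that crossed 0 passed neither with all libraries nor without the one left out. The causes of these shifts were not tested.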
